A study of Hordeum vulgare with 10 samples.

Results

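Early nodulin 93 (ENOD93) transcripts of barley roots were followed at 2 h post treatment (hpt) with ergosterol, with lipids of the root endophyte *S. indica*, or with the solvent alone. The members were chosen by a word and a measured value, namely every transcript described as early nodulin 93 whose abundance averaged at least 1 TPM over the 10 libraries, each transcript taken once. The family itself was picked with earlier results of these data known. Counts of its members set beside the shares over all transcripts are therefore descriptions and no independent test of the family. TPM is the share of a transcript among all transcripts of a library after division by transcript length, scaled to a library sum of 1000000, so levels can be set side by side between genes. Of 37962 distinct transcripts, 11 carried the description, and 10 of these reached the mean of 1 TPM, as did 18330 transcripts in all. The eleventh, HORVU.MOREX.r3.7HG0649520.1, was listed at 0 TPM in all 10 libraries. The member nearest to the minimum averaged 1.70 TPM, and no described transcript had a mean between 0 and 1.70. Each of the 10 members averaged at least 1.04 TPM in the solvent control alone, so none passed the minimum only through a treated group.

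All plants were wild-type (WT) *Hordeum vulgare* cv Golden Promise, and 5 mm root pieces of 7 days old seedlings were incubated for 2 h. The 3 solvent control libraries came from roots in MES buffer that held methanol diluted 1 : 40, and both treatments held as much methanol. The 3 ergosterol libraries received ergosterol, the main sterol of fungal membranes, at 250 nM, and the 4 *S. indica* lipid libraries received *S. indica* lipid extract diluted 1 : 160 in the well. A replicate was a pool of pieces from 2 wells, and no label says that replicates came from separate batches of seedlings, so p-values measure the spread between these pools. Leaf markers were nearly silent in these root libraries: 6 of 11 matched transcripts of the Rubisco small subunit and of chlorophyll-binding proteins were at 0 in every library, and the sum over all 11 was 3.08 to 7.71 TPM in the solvent control, 3.35 to 4.05 TPM upon ergosterol and 3.22 to 5.64 TPM upon *S. indica* lipid treatment. The root marker list matched only 1 transcript, at 0.334 to 2.28 TPM, and so gave no check of its own. Read totals cannot be recovered from TPM, so depth is unknown and precision is judged by the replicate spread.

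Early nodulins were first described as genes switched on early in the formation of legume nodules, and ENOD93 was first known from soybean. Cereals form no such nodules but carry ENOD93 genes, which encode small membrane proteins. In rice, ENOD93 is known to respond to nitrogen supply and the protein has been found in mitochondria. No member-specific role is known for the barley transcripts, which are given here by their identifiers in the MorexV3 annotation, without their shared start HORVU.MOREX.r3 and without the transcript number at their end. A number within a barley identifier follows gene order along the chromosome, and the code before it names the chromosome.

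By these identifiers, 8 of the 10 members lay close to each other in gene order on chromosome 7H, from 7HG0649480 to 7HG0649590, and the silent 7HG0649520 lay among them. The other members were 7HG0655770, farther along 7H, and 6HG0580890 on 6H. This grouping uses the identifiers and no measured value, but it was made with the results known, and the description below keeps to the values of its members. Near-identical copies can exchange reads when abundance is estimated from sequence reads, and reads of Golden Promise were assigned to transcripts of another cultivar, Morex. The division of abundance among the 8 neighbouring copies is therefore less certain than their sum.

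In solvent control roots, the family was dominated by the members outside the block. 7HG0655770 stood at 407, 413 and 340 TPM (mean 387 ± 40.6, SD, n = 3) and 6HG0580890 at 156, 149.6 and 148 TPM (151 ± 4.40). These ranges did not overlap with each other, nor did the range of 6HG0580890 overlap with that of the leading block member, 7HG0649550, at 27.5 to 55.1 TPM. Below it came 7HG0649540 at 12.6 to 30.9 TPM, 7HG0649490 at 1.08 to 17.1 TPM, 7HG0649480 at 3.55 to 17.7 TPM and 7HG0649570 at 3.23 to 8.77 TPM. Neighbours in this order overlapped, although 7HG0649550 was above 7HG0649540 in 10 of 10 libraries. A gap separated 7HG0649570 from the 3 weakest members, 7HG0649510 (1.03 to 2.10 TPM), 7HG0649590 (0.853 to 2.09 TPM) and 7HG0649530 (0.538 to 1.66 TPM), which overlapped among themselves.

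**Figure D1:**
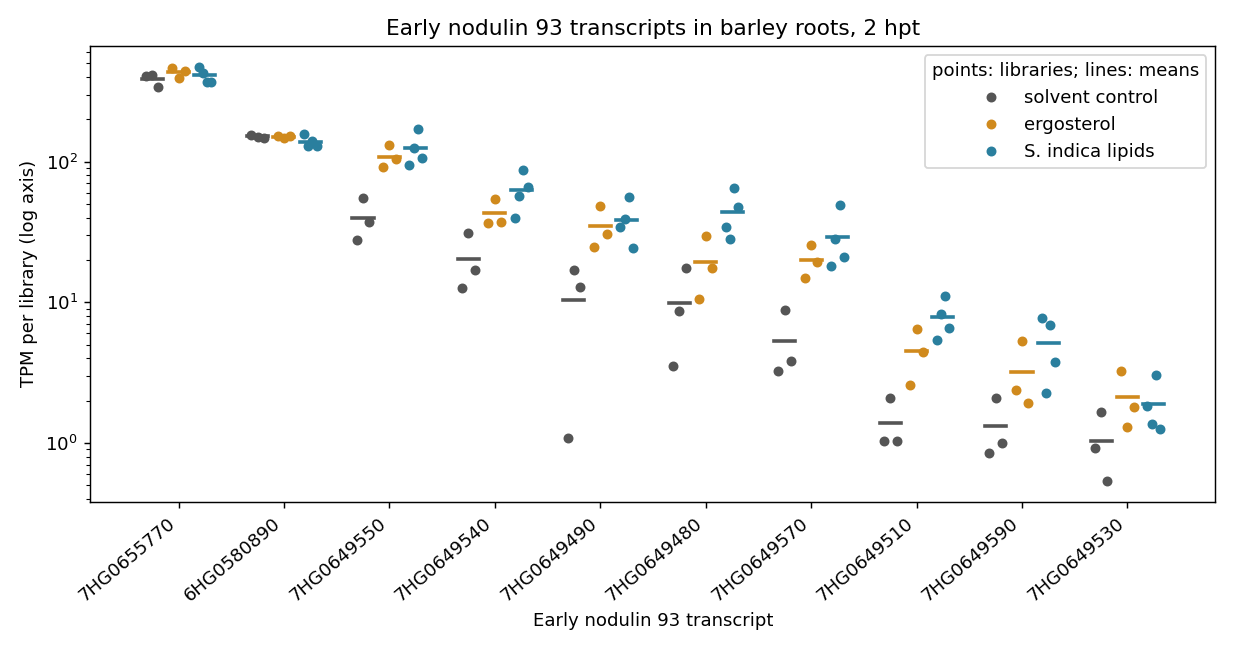
TPM of each ENOD93 transcript (log axis) in the 10 libraries, with points for libraries and lines for group means of solvent control, ergosterol and S. indica lipid treatment. 7HG0655770 and 6HG0580890 stay between 129 and 474 TPM in all groups, whereas the treated means of the 8 transcripts on their right lie above the solvent control means.

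The most abundant members differed little between treatments. 7HG0655770 reached 461, 392 and 444 TPM upon ergosterol (432 ± 36.2, n = 3) and 474, 427, 371 and 372 TPM upon *S. indica* lipid treatment (411 ± 49.7, n = 4), and both groups overlapped with the solvent control. Its log2 fold change (log2FC, treated minus solvent control mean on the log2(TPM + 1) scale, with limma p-values adjusted over all 18330 transcripts after Benjamini and Hochberg) was 0.16 upon ergosterol (95% interval −0.11 to 0.43, adjusted p = 0.498) and 0.09 upon *S. indica* lipids (−0.17 to 0.34, adjusted p = 0.779). 6HG0580890 was at 151.5, 147 and 153 TPM upon ergosterol and at 157, 129, 140 and 130 TPM upon *S. indica* lipids, again overlapping with the solvent control. Its log2FC was −0.01 (−0.20 to 0.19, adjusted p = 0.983, limma) and −0.12 (−0.31 to 0.06, adjusted p = 0.525). The intervals leave out a change of 1 on the log2 scale in either direction for both transcripts.

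Upon ergosterol, 2 members of the 7H block rose, 7HG0649550 and 7HG0649570, and no member fell. A member was called where limma's adjusted p did not exceed 0.05 and the log2FC reached 1 in size. They were 2 of 10 members, while 1.16% of all transcripts tested were called higher. Only 13 of 18330 transcripts were called lower, so the lack of a falling member does not set the family apart. In 5 of 10 members every ergosterol library lay above every solvent control library, against 9.09% of all transcripts. The median log2FC was 1.06 over the 10 members and 1.14 over the 8 block members, where the median over all transcripts was −0.08 and 36.9% lay above 0. The call of 7HG0649570 rested on single libraries, and the number called was 1 without solvent control 1, solvent control 3, ergosterol 2 or ergosterol 3, and 3 without solvent control 2. It was also 1 when no minimum abundance was set and 5 with array weights, by which limma gives less weight to libraries that deviate. Roots hold several cell types, and more transcript per cell and more cells of an expressing type cannot be told apart here.

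Upon *S. indica* lipid treatment, 5 block members rose, 7HG0649550, 7HG0649570, 7HG0649510, 7HG0649540 and 7HG0649480, and no member fell. These were 5 of 10 members, against 1.17% of all transcripts called higher. Here 17 of 18330 transcripts were called lower, so the lack of a falling member again does not set the family apart. In 7 of 10 members, the whole *S. indica* lipid group was above the whole solvent control group, against 6.85% of all transcripts. The median log2FC was 1.63 over the 10 members and 1.76 over the block, and −0.04 over all transcripts, 41.2% of which were above 0. Without solvent control 1 the number called was 3, and in the other fits that left out 1 library it was 4 to 6. The same solvent control libraries served for both comparisons, so the resemblance of the fold changes is in part built into the design.

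7HG0649550, the most abundant block member, had 27.5, 55.1 and 37.0 TPM in the solvent control (39.9 ± 14.0). It had 91.8, 131 and 104 TPM upon ergosterol (109 ± 20.0) and 95.2, 125, 172 and 107 TPM upon *S. indica* lipids (125 ± 33.6). All 7 treated libraries exceeded all solvent control libraries, and the ratio of mean TPM was 2.73 and 3.13. In limma the log2FC was 1.47 (SE 0.259, adjusted p = 0.0111) and 1.64 (SE 0.243, adjusted p = 0.00324), ranks 84 and 63 among all rises. It was the only member called in both comparisons under all 21 alternative settings, each tried in turn.

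7HG0649570 was lower, with 3.23, 8.77 and 3.84 TPM in the solvent control (5.28 ± 3.03), 14.8, 25.5 and 19.2 TPM upon ergosterol (19.9 ± 5.39) and 18.0, 28.0, 48.9 and 21.0 TPM upon *S. indica* lipids (29.0 ± 13.9). Here too, no treated library fell into the solvent control range. The ratio of means was 3.76 and 5.49, and the log2FC was 1.80 (SE 0.382, adjusted p = 0.0286, limma; rank 40) and 2.25 (SE 0.357, adjusted p = 0.00485; rank 11). The call upon ergosterol was lost without solvent control 1 (adjusted p = 0.0951), solvent control 3 (0.113), ergosterol 1 (0.0563), ergosterol 2 (0.0865) or ergosterol 3 (0.0941), and with no minimum abundance (0.0810). The call upon *S. indica* lipids held in all 21 alternatives.

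7HG0649510, a weakly expressed copy, went from 1.04, 2.10 and 1.03 TPM in the solvent control (1.39 ± 0.614) to 5.39, 8.19, 11.1 and 6.56 TPM upon *S. indica* lipids (7.80 ± 2.46), with 2.56, 6.47 and 4.45 TPM upon ergosterol (4.49 ± 1.95). All treated values were above all solvent control values. Upon *S. indica* lipids its log2FC was 1.87 (SE 0.283, adjusted p = 0.00377, limma), a call that held in 20 of 20 alternatives. Upon ergosterol it was 1.17 (SE 0.302, adjusted p = 0.0674) and missed the threshold, which it passed without ergosterol 1 (adjusted p = 0.0435), with a pseudocount of 0.1 (0.0493), with array weights (0.0123) and with the replicate number as a block (0.0369). Because 1 was added to TPM before the logarithm, the log2FC of such weak transcripts understates the ratio of means, which was 3.23 and 5.61.

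7HG0649540 had 12.6, 30.9 and 16.9 TPM in the solvent control (20.2 ± 9.58), 36.9, 54.6 and 37.2 TPM upon ergosterol (42.9 ± 10.1) and 39.8, 57.2, 86.8 and 65.7 TPM upon *S. indica* lipids (62.4 ± 19.5). The groups were separate, but solvent control 2 came close to the lowest treated libraries. Upon *S. indica* lipids the log2FC was 1.62 (SE 0.304, adjusted p = 0.0123, limma), and the call was lost without solvent control 1 (adjusted p = 0.0581) or solvent control 3 (0.0588). Upon ergosterol the log2FC was 1.12 (SE 0.325, adjusted p = 0.0962), and it was called without solvent control 2 (adjusted p = 0.0240) and with array weights (0.0173).

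7HG0649480 was the member with the widest gap between both treatments. It had 3.55, 8.65 and 17.7 TPM in the solvent control (9.96 ± 7.15), 10.5, 29.8 and 17.5 TPM upon ergosterol (19.3 ± 9.76) and 34.1, 28.2, 64.5 and 47.7 TPM upon *S. indica* lipids (43.6 ± 16.1). The ergosterol libraries overlapped with the solvent control, and the *S. indica* lipid libraries did not. In limma, the ergosterol log2FC was 1.00 (SE 0.496, adjusted p = 0.292) and the *S. indica* lipid log2FC 2.18 (SE 0.464, adjusted p = 0.0238; rank 17). That call was lost without solvent control 1 (adjusted p = 0.0857), solvent control 2 (0.0638), *S. indica* lipids 3 (0.0634) or *S. indica* lipids 4 (0.0654), with array weights (0.0737) and with no minimum abundance (0.0791).

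The remaining block members did not pass in either comparison. 7HG0649490 had large limma fold changes, a log2FC of 2.10 for ergosterol (SE 0.660, adjusted p = 0.122) and of 2.24 for *S. indica* lipids (SE 0.617, adjusted p = 0.0816), on values of 1.08, 17.1 and 12.8 TPM in the solvent control, 24.8, 48.8 and 30.8 TPM upon ergosterol and 34.5, 38.9, 56.2 and 24.2 TPM upon *S. indica* lipids. Its groups were separate, but solvent control 1 was far below its replicates: without that library the log2FC was 1.13 (adjusted p = 0.127) and 1.26 (adjusted p = 0.0856). Without solvent control 2 the *S. indica* lipid change was 2.82 (adjusted p = 0.0357), and with array weights the ergosterol change was 1.59 (adjusted p = 0.0487), each past both limits.

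7HG0649590 had 0.853, 2.09 and 0.995 TPM in the solvent control, 2.36, 5.31 and 1.92 TPM upon ergosterol and 7.70, 2.28, 6.93 and 3.79 TPM upon *S. indica* lipids. The latter group was above the solvent control throughout, at 1.35 on the log2 scale (limma, SE 0.370, adjusted p = 0.0796), and passed only without *S. indica* lipids 2 (1.62, adjusted p = 0.0331). The ergosterol value was 0.81 (SE 0.396, adjusted p = 0.284). 7HG0649530, the weakest member, had 0.914, 1.66 and 0.538 TPM in the solvent control, 3.26, 1.30 and 1.80 TPM upon ergosterol and 1.84, 1.36, 3.04 and 1.26 TPM upon *S. indica* lipids. Its groups overlapped, and its log2FC was 0.60 (SE 0.300, adjusted p = 0.294) and 0.49 (SE 0.281, adjusted p = 0.444).

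**Figure D2:**
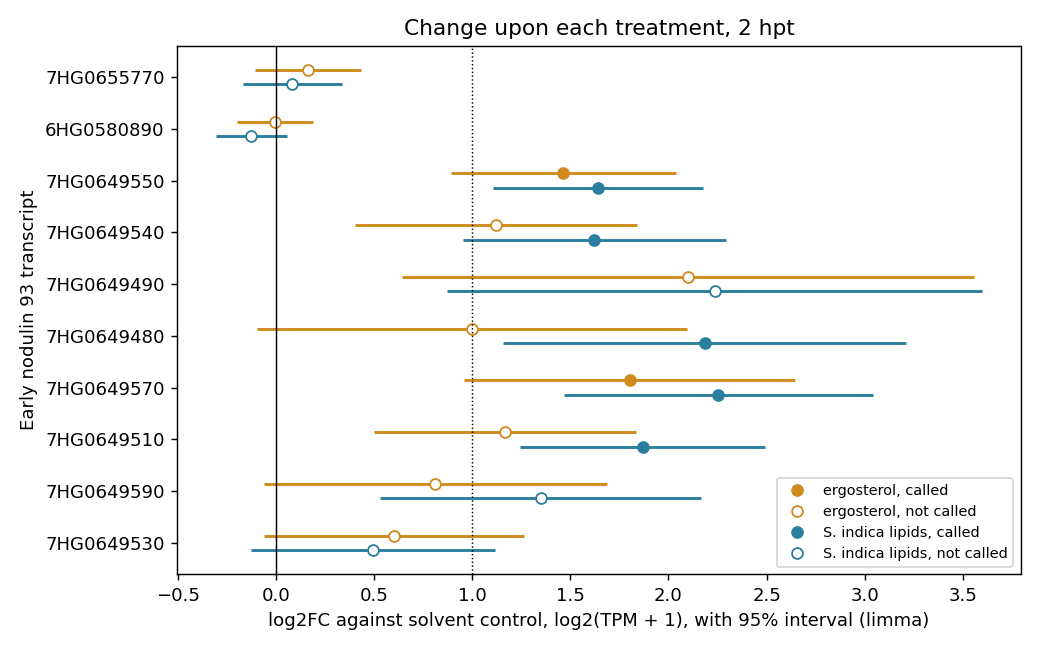
log2FC of each ENOD93 transcript against the solvent control, on log2(TPM + 1), with points for estimates and bars for 95% limma intervals; filled points mark calls, the dotted line marks a log2FC of 1. The 2 upper transcripts have intervals that lie within −0.31 and 0.43, and all filled points belong to the 7H block, 2 upon ergosterol and 5 upon S. indica lipids.

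The direct comparison asked whether the crude lipid extract and its sterol differed in their effect on the family. No member was called, as was no transcript at all (0% of 18330), while 2 members and 975 transcripts had an unadjusted p under 0.05 in limma. Those members were 7HG0649480, 1.18 higher on the log2 scale upon *S. indica* lipids than upon ergosterol (95% interval 0.16 to 2.21, adjusted p = 0.907, limma), and 7HG0649510, 0.70 higher (0.08 to 1.33, adjusted p = 0.907). In 0 of 10 members was the whole *S. indica* lipid group above the whole ergosterol group, and 3.86% of all transcripts had such a gap. With so few members, that count does not set them apart from other transcripts. For 7HG0649550 the difference was 0.18, with an interval of −0.36 to 0.71, and for 7HG0649570 it was 0.45 (−0.33 to 1.24). The intervals of 7HG0649540 (0.50, −0.17 to 1.17), 7HG0649490 (0.14, −1.23 to 1.50), 7HG0649590 (0.54, −0.28 to 1.35) and 7HG0649530 (−0.11, −0.73 to 0.51) also held 0. The median over the members was 0.31 and over all transcripts 0.03. These intervals are wide, and equal responses to both treatments were not shown.

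The 8 block members together amounted to 50.8, 126 and 90.8 TPM in the solvent control (89.3 ± 37.8). Their sum was 187, 302 and 217 TPM upon ergosterol (235 ± 60.0, 2.63 times the solvent control) and 236, 290, 449 and 277 TPM upon *S. indica* lipids (313 ± 93.5, 3.51 times). Every treated sum was above every solvent control sum. The members outside the block together had 487 to 563 TPM in the solvent control, 538 to 613 TPM upon ergosterol and 501 to 631 TPM upon *S. indica* lipids. Their ratio to the solvent control was 1.08 and 1.02, with overlapping groups.

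The composition of the family differed accordingly. The block made up 8.28%, 18.3% and 15.7% of the family in the solvent control, 23.4%, 36.0% and 26.6% upon ergosterol and 27.3%, 34.2%, 46.8% and 35.6% upon *S. indica* lipids. No treated library fell into the solvent control range. The family as a whole had 578 to 689 TPM in the solvent control, 799 to 841 TPM upon ergosterol and 779 to 960 TPM upon *S. indica* lipids, 1.30 and 1.38 times the solvent control mean.

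**Figure D3:**
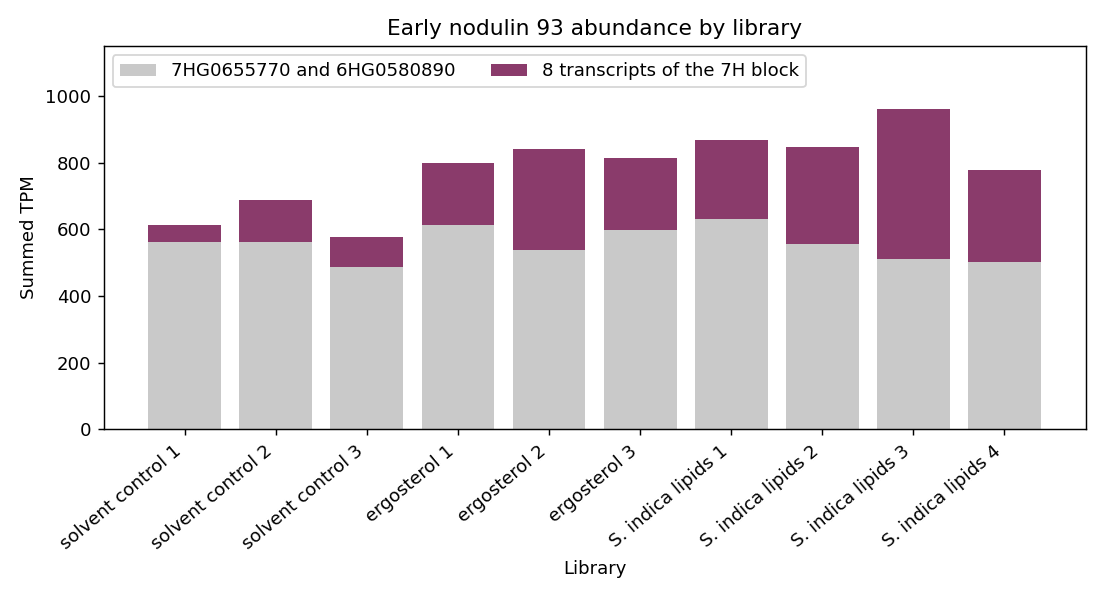
Summed TPM of ENOD93 transcripts in each library, with grey bars for 7HG0655770 and 6HG0580890 and purple bars for the 8 block members. The purple portion lies between 50.8 and 126 TPM in the solvent control and between 187 and 449 TPM in the treated libraries, and the grey portion between 487 and 631 TPM throughout.

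Within the block, 7HG0649550 stayed the leading copy while the total changed, and the ranks below it were less fixed. 7HG0649550 made up 38.2% to 54.2% of the block in all 10 libraries, with group means of 46.2% in the solvent control, 46.7% upon ergosterol and 40.1% upon *S. indica* lipids. 7HG0649540 followed at 16.8% to 24.8%, although 7HG0649480 exceeded it in solvent control 3 (19.5% against 18.7%). 7HG0649480 held 5.62% to 19.5% and 7HG0649490 held 2.13% to 16.1%, and the lowest share of 7HG0649490 was that of solvent control 1. 7HG0649570 held 4.24% to 10.9%, with group means of 5.84% in the solvent control, 8.41% upon ergosterol and 8.94% upon *S. indica* lipids. 7HG0649490 was above 7HG0649480 in 6 of 10 libraries, and 7HG0649480 above 7HG0649570 in 7 of 10. The 3 weakest copies stayed at 2.83%, 3.25% and 1.80% of the block at most, for 7HG0649510, 7HG0649590 and 7HG0649530, respectively.

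Most block members also moved together among replicates of the same treatment, 7HG0649530 and 7HG0649590 less closely than the others. Of the 8, 7 had their highest solvent control value in replicate 2, 7 had their highest ergosterol value in replicate 2, and 7 had their highest *S. indica* lipid value in replicate 3. The median deviation from the treatment mean over the 8 was −0.46, 0.48 and −0.16 on the log2 scale in solvent control 1, 2 and 3, −0.30, 0.44 and −0.08 in ergosterol 1, 2 and 3, and −0.32, −0.01, 0.53 and −0.22 in *S. indica* lipids 1 to 4. After the treatment means were taken away, Pearson's r was above 0 in 27 of 28 pairs of block members, with a median of 0.480 (range −0.248 to 0.975, 10 libraries). The highest value was that of 7HG0649550 and 7HG0649570.

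The same libraries did not set the members outside the block apart in the same way. In the 16 pairs of a block member with 7HG0655770 or 6HG0580890, the median r of these deviations was −0.298 (range −0.786 to 0.459), and 3 pairs were above 0. 7HG0655770 and 6HG0580890 had an r of 0.598 with each other. These correlations are descriptions over 10 libraries whose values share the library, and copies that exchange reads also share their estimates. The part of read sharing in them was not tested.

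**Figure D4:**
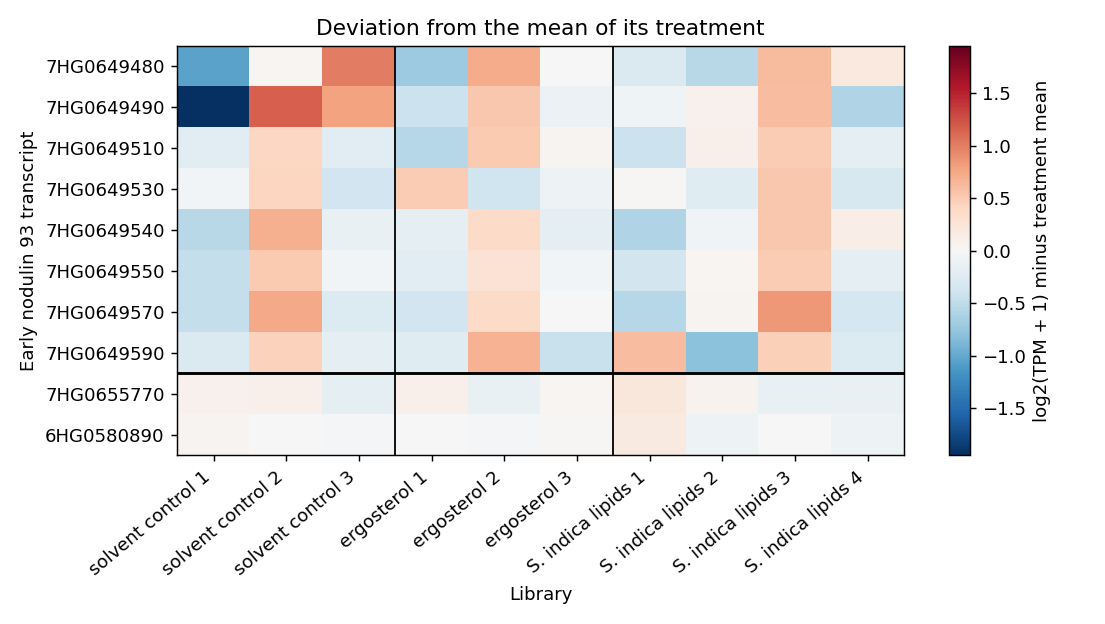
Deviation of each ENOD93 transcript from the mean of its treatment, in log2(TPM + 1), by library (columns), with red above and blue below the mean. Solvent control 2, ergosterol 2 and S. indica lipids 3 are red for 7 of 8 block members or more, and the 2 lower transcripts, outside the block, deviate little.

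Genes next to the block in gene order gave a local comparison. Within 200 identifier numbers on either side on 7H, 24 transcripts of 23 loci were not ENOD93. Of these, 4 reached 1 TPM on average, and 0 of the 4 were called in either comparison. Over all transcripts, 1.16% and 1.17% were called higher, so 4 transcripts are too few to show whether neighbours responded. The log2FC of the 4 was −0.09 to 0.68 upon ergosterol (median 0.26) and −0.22 to 0.98 upon *S. indica* lipids (median 0.35). The largest was that of 7HG0649370.2, a protein kinase, with 0.68 (adjusted p = 0.00412, limma) and 0.98 (adjusted p = 0.000277), below the limit of 1 on the log2 scale. A kinase family protein, 7HG0649340, had 0.59 (adjusted p = 0.0863) and 0.74 (adjusted p = 0.0211). 7HG0649350 and 7HG0649370.1 were at −0.07 and −0.09 upon ergosterol, and at −0.03 and −0.22 upon *S. indica* lipids. Between the first and the last block member, the only transcript that was not ENOD93 was one of a short-chain dehydrogenase/reductase, 7HG0649580, which was below 1 TPM on average.

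Profiles most like the family's leading members were sought among all tested transcripts, by Pearson's r of log2(TPM + 1) over the 10 libraries, which includes the difference between treatments. For 7HG0655770, the most abundant member, the highest were a TIM22 subunit of the mitochondrial inner membrane import machinery (HORVU.MOREX.r3.5HG0447820.1, r = 0.947) and a ubiquitin-associated domain protein (HORVU.MOREX.r3.7HG0678530.1, r = 0.942). An E3 ubiquitin ligase RNF25 (r = 0.922), a membrane-anchored ubiquitin-fold protein (r = 0.915) and an ATP sulfurylase, the first enzyme of sulfate assimilation (r = 0.915), came next. With treatment means taken away, the highest r with 7HG0655770 were those of an AP-4 complex subunit (0.991), a calcineurin B-like protein (0.979) and a subunit of RNA polymerase II (0.978). With so many transcripts and 10 libraries, high values arise in any such ranking.

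For 7HG0649550, a reference taken after its values were seen, the top of the list was a prolyl 4-hydroxylase (HORVU.MOREX.r3.5HG0521560.2, r = 0.980), an enzyme that modifies proline in proteins. It was followed by a B12D protein (HORVU.MOREX.r3.2HG0127330.1, r = 0.972), of a family of small proteins that is mitochondrial in rice. The B12D transcript was among the abundant ones, with 438 ± 69.5 TPM in the solvent control, 1154 ± 139 TPM upon ergosterol and 1375 ± 226 TPM upon *S. indica* lipids, and its rise in limma was 1.40 (SE 0.162, adjusted p = 0.000845) and 1.65 (SE 0.152, adjusted p = 0.000215) on the log2 scale. An alcohol dehydrogenase, the last enzyme of ethanol fermentation, was next (HORVU.MOREX.r3.4HG0345760.1, r = 0.970), with 132 ± 29.2, 204 ± 26.2 and 243 ± 27.4 TPM and a log2FC of 0.64 (adjusted p = 0.0645) and 0.90 (adjusted p = 0.00760). An aspartyl protease (r = 0.961) and a 12-oxophytodienoate reductase-like protein (r = 0.952) completed the first 5. With treatment means taken away, the list for 7HG0649550 held none of these: it was led by a phosphatidylinositol transfer protein (0.973), an F-box protein (0.959), an acyl carrier protein (0.954), an expansin (0.948) and a kinase (0.943).

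Gene lists related to ENOD93 by name or by its known setting were counted beside it. Over all transcripts, 1.16% were called higher upon ergosterol and 1.17% upon *S. indica* lipids. At these shares a short list would mostly hold no call, so a list without calls was not shown to be unresponsive. Other proteins with nodulin in their description share a word and not a family: 23 of 36 were tested, 1 was called higher in each comparison and 0 lower, with a median log2FC of 0.03 and 0.12. The called one was an early nodulin-like protein (HORVU.MOREX.r3.7HG0733550.1), at 31.2 ± 2.04 TPM in the solvent control, 82.5 ± 8.03 TPM upon ergosterol and 105 ± 27.9 TPM upon *S. indica* lipids. In limma its log2FC was 1.37 (SE 0.188, adjusted p = 0.00271) and 1.69 (SE 0.176, adjusted p = 0.000432).

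Among the mitochondrial lists, cytochrome c oxidase, the respiratory complex that reduces oxygen, had 0 of 5 tested transcripts called in either direction. Its medians were −0.18 and −0.14, and 5 transcripts are too few to set against the share over all transcripts. Alternative oxidase, the other terminal oxidase of plant mitochondria, had 2 of 4 called higher in both comparisons. These were annotated as ubiquinol oxidases: HORVU.MOREX.r3.2HG0193660.1 went from 6.05 ± 1.05 TPM to 28.6 ± 3.29 and 28.6 ± 3.27 TPM, with a log2FC of 2.07 in both comparisons (adjusted p = 8.39e-05 and 3.43e-05, limma). HORVU.MOREX.r3.2HG0193650.1 went from 9.89 ± 2.93 TPM to 24.6 ± 2.25 and 21.0 ± 3.57 TPM, with 1.27 (adjusted p = 0.00613, limma) and 1.04 (adjusted p = 0.0111). Over the 4 alternative oxidases, the log2FC was −0.24 to 2.07 upon ergosterol (median 1.00) and −0.46 to 2.07 upon *S. indica* lipids (median 0.87). These 4 transcripts, too, are too few to set against the share over all transcripts.

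The list of low-oxygen and fermentation genes held 39 tested transcripts, of which 0 were called upon ergosterol and 3 were called higher upon *S. indica* lipids, with medians of −0.12 and −0.09. A hypoxia-responsive family protein (HORVU.MOREX.r3.2HG0113270.1) had 205 ± 9.12, 375 ± 30.7 and 419.5 ± 67.1 TPM, with a log2FC of 0.87 (adjusted p = 0.00412, limma) upon ergosterol, short of the fold limit, and 1.02 (adjusted p = 0.000891) upon *S. indica* lipids. The others were alcohol dehydrogenases, HORVU.MOREX.r3.1HG0082960.1 with 1.34 (adjusted p = 0.0347) and HORVU.MOREX.r3.4HG0345740.1 with 1.02 (adjusted p = 0.00759) upon *S. indica* lipids. Nitrogen assimilation enzymes, listed because rice ENOD93 responds to nitrogen, had 0 of 27 tested transcripts called in either direction and medians of −0.11 and −0.07. With 1.16% and 1.17% of all transcripts called higher, that count does not set them apart from other transcripts.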

How the data were processed

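RNA-Seq of 10 libraries was analysed from the deposited table. The authors trimmed reads with Trimmomatic 0.39, checked them with FastQC and estimated TPM with kallisto 0.46.1 against the MorexV3 cDNA. The deposited values are an abundance signal in TPM per library. The deposited log2 fold changes and the authors' q-values (sleuth) hold their own comparisons and were not used. The table repeats 5420 of its 43382 lines with the same values, which were dropped, and library sums then were 1000000. All value columns in use had a sample (0 had none).

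Transcripts averaging at least 1 TPM were fitted on log2(TPM + 1) with limma 3.58.1 (R 4.3.3), with 1 mean per treatment, trended variances, 3 contrasts and Benjamini-Hochberg adjustment. Fits were tested on simulated data. Python 3.11.15 with pandas 2.3.3 and numpy 2.4.6 served otherwise. Sequences and positions were not analysed here.

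Members and lists, matched by description words, were chosen with earlier results of these data known. All members were named, of each list the called transcripts, and for likeness the 5 nearest to the most abundant member; likeness to 7HG0649550 was added after its values were seen. Alternatives were pseudocounts of 0.1 and 0.5, no minimum, a minimum of 5 TPM, median-ratio scaling, quantile normalization, fits of the 2 groups compared, untrended variances, array weights, replicate number as block, sums per locus, each library left out, and adjusted p alone.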

Additional observations from a re-analysis of the deposited data

How the results depend on the processing

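Of 621 values of single members under alternatives, 589 kept direction and call, 14 lost the call, 9 gained it and 9 changed sign. The ergosterol count of 2 was 1 without a minimum abundance, 5 with array weights, 3 with a pseudocount of 0.1 and 1 to 3 with a library left out. The *S. indica* lipid count of 5 was 3 to 6 with a library left out, lowest without solvent control 1, and 4 or 5 under all other alternatives. The direct comparison called 0 members throughout. Signs changed only in values near 0. The ergosterol log2FC of 6HG0580890 was 0.066 with median-ratio scaling, 0.0024 with quantile normalization, 0.022 with array weights and −0.022 to 0.018 with a library left out. With a library left out, the *S. indica* lipid log2FC of 7HG0655770 was −0.0045 to 0.14, and the direct differences were −0.073 to 0.40 for 7HG0649490 and −0.30 to 0.14 for 7HG0649530. The cause was not tested.

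With the replicate number as a replicate block, 3, 5 and 0 members were called upon ergosterol, upon *S. indica* lipids and between them. The added one was 7HG0649510 upon ergosterol (adjusted p = 0.0369, limma). No label says what samples with the same number shared. Their deviations correlated at −0.19 to 0.20 over 9 pairs, and those of other pairs at −0.24 to 0.29. So few pairs cannot decide whether equal numbers mark a pairing. TPM hold no read totals, so what depth limits could not be measured.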
